A study of Saccharomyces cerevisiae with 4 samples.

Results

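The histone genes of the budding yeast Saccharomyces cerevisiae were examined for peaks of Arp4 in chromatin immunoprecipitation with sequencing. The 10 genes were chosen by name, all 10 were found in the R64 gene table, and they are 10 of its 6002 protein-coding genes. HTA1 and HTA2 encode histone H2A, HTB1 and HTB2 encode H2B, HHT1 and HHT2 encode H3, and HHF1 and HHF2 encode H4. HTZ1 encodes the H2A variant H2A.Z, and HHO1 encodes the linker histone H1. They lie at 6 loci, namely the divergent gene pairs HTA1-HTB1, HTA2-HTB2, HHT1-HHF1 and HHT2-HHF2 and the separate genes HTZ1 and HHO1.

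The series has 4 samples of wild-type cells grown in YPD medium at 30 °C to mid-log phase. In 2 of them Arp4 carried a Flag tag (Arp4-3Flag) and in the other 2 there was no tag, and all were precipitated with an anti-Flag antibody. The labels give no strain background and do not say whether samples of 1 genotype came from separate cultures. The data analysed here are 1 deposited list of 1430 peaks on 16 chromosomes. Values for single samples are not part of it. No replicate error or test can therefore stand beside the values, the depth of sequencing is unknown, and the untagged cells themselves were not analysed here. Fold enrichment is the authors' ratio of signal at the peak's summit to the background estimated by the peak caller, and it serves only to order and describe the peaks of this list.

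Core histone genes of budding yeast are transcribed in S phase from regulatory DNA that lies between the 2 genes of each divergent pair. Spt10 and the cell cycle factor SBF activate them, and the HIR complex, with Asf1 and Rtt106, represses them outside S phase at all pairs except HTA2-HTB2. Arp4 is an actin-related subunit of NuA4, which acetylates H4 and H2A in nucleosomes, of SWR1, which exchanges H2A for H2A.Z, and of INO80, another nucleosome remodeller. Core histones and H2A.Z are therefore substrates of the complexes that contain Arp4.

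Arp4 summits lay at the starts of HTA1, HTB1, HTB2, HHT2, HHF2 and HHO1, and no summit lay at the starts of HTA2, HHT1, HHF1 and HTZ1. The promoter window ran from 500 bp before the annotated start of the coding sequence to 100 bp after it, and transcription start sites were not considered. By this measure 6 of the 10 histone genes had a promoter summit, against 839 of 6002 protein-coding genes (14.0%). The 6 genes are not 6 independent cases, because HTA1 and HTB1 shared a peak and HHT2 and HHF2 shared another. Upstream summits were present at 5 of the 10 histone genes and at 577 of 6002 genes (9.61%). Summits in the first 100 bp of the gene were present at 2 of the 10, HTB1 and HTB2, and at 272 of 6002 (4.53%). Among 1373 genes as long as the histone genes (312 to 777 bp), 206 had a promoter summit (15.0%). No histone gene had a summit more than 100 bp from both of its ends, against 609 of 6002 genes (10.1%). Histone genes are short, so that inner part is small in each of them. Growing cultures contain cells in all phases of the cycle, so a peak held by few cells and a weak peak held by all cannot be told apart.

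**Figure D1:**
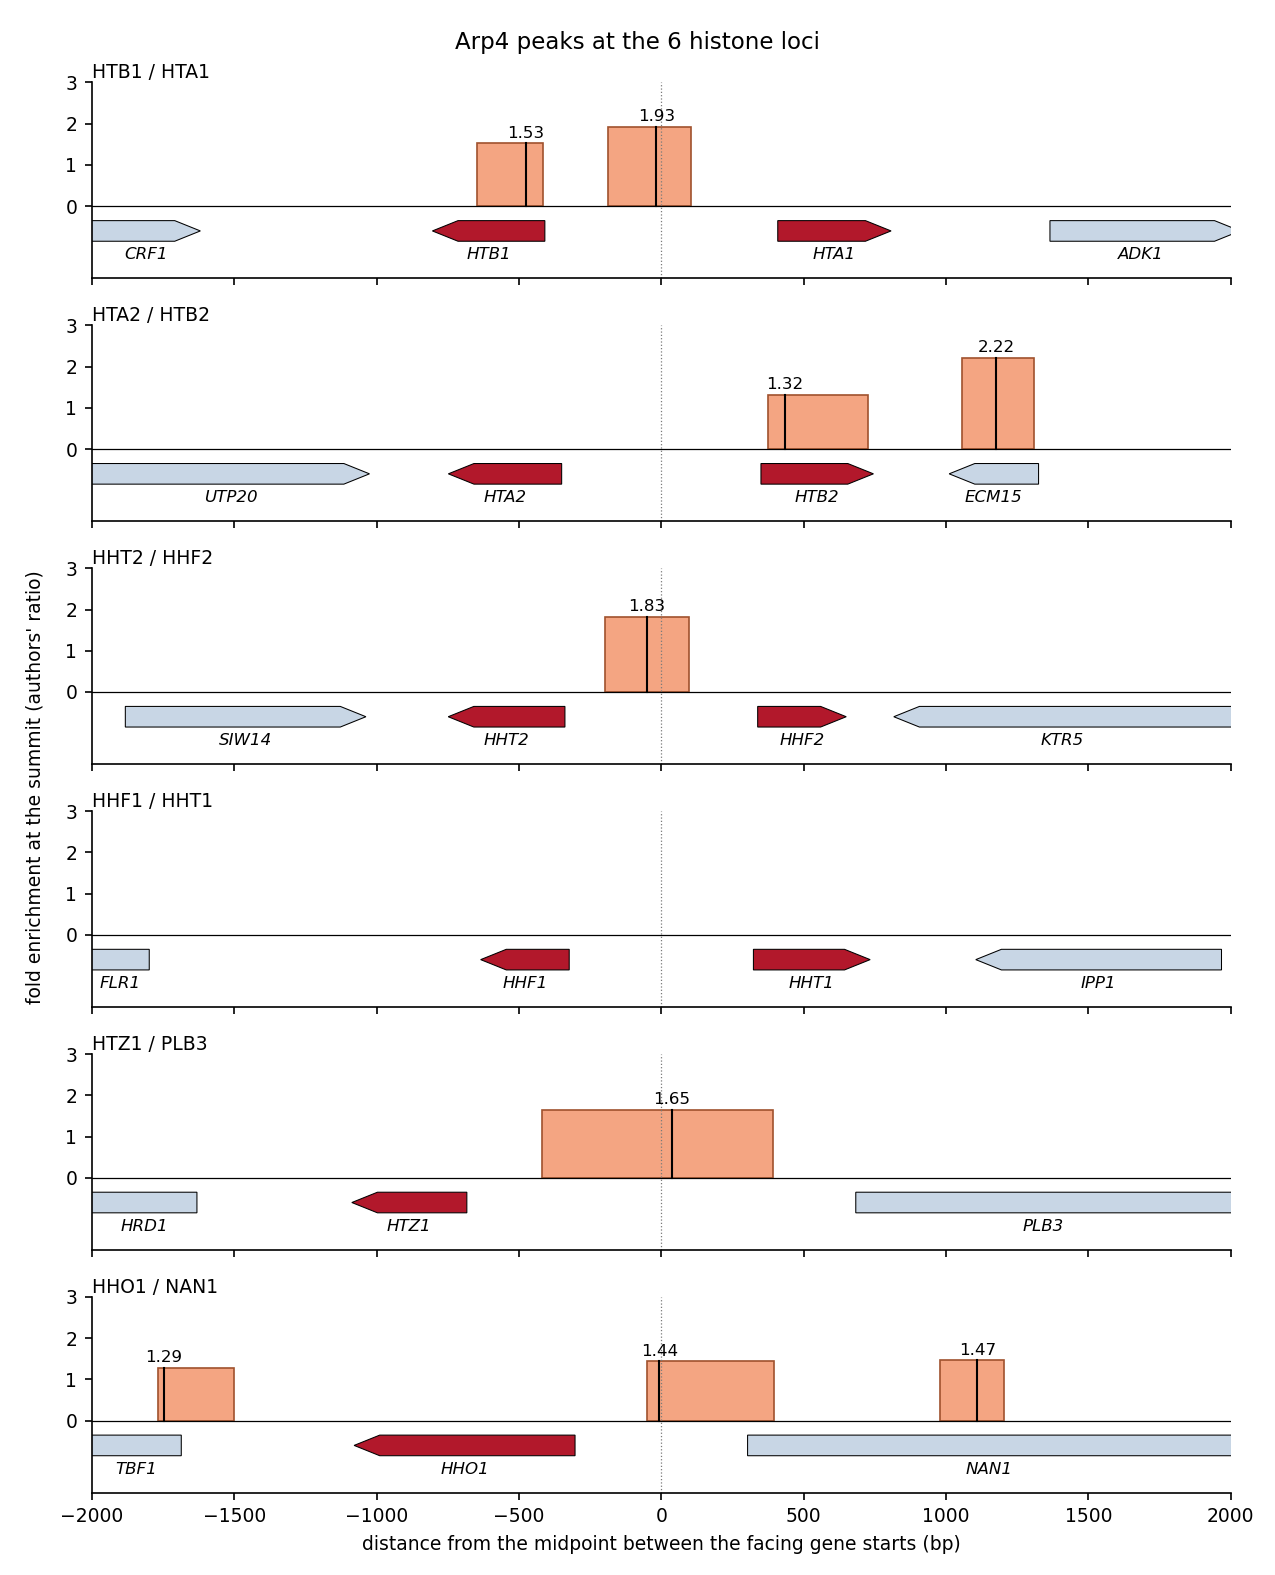
Arp4 peaks (orange boxes, height is fold enrichment with its value printed, black line is the summit) and genes (arrows, histone genes in red) at the 6 histone loci, by distance in bp from the midpoint between the facing gene starts. The regions HTB1/HTA1, HHT2/HHF2, HTZ1/PLB3 and HHO1/NAN1 held a summit near the midpoint, HTA2/HTB2 had a peak inside HTB2, and HHF1/HHT1 had none.

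The H2A-H2B pair HTA1-HTB1 carried the strongest of the histone promoter peaks and a further peak inside HTB1. The first (chrIV:914933-915225, given as in the authors' list, whose build is not stated) had a fold of 1.93, with a −log10 q of 23.2. Its summit lay 427 bp upstream of HTA1 and 391 bp upstream of HTB1, which is 18 bp from the midpoint between the 2 starts. The second peak (chrIV:914472-914707) was weaker, at a fold of 1.53 (−log10 q 7.29). It lay wholly inside HTB1, with its summit 66 bp from the start, and covered 59.6% of the coding sequence. HTB1 was 1 of 10 genes among 6002 (0.167%) with a summit both in the 500 bp upstream and in the first 100 bp of the gene.

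The second H2A-H2B pair, HTA2-HTB2, had no summit between its starts. Its peak (chrII:236516-236867) lay wholly inside HTB2, with the summit 84 bp from the start, and covered 88.9% of the gene. At a fold of 1.32 (−log10 q 3.00) it was the weakest of the histone promoter peaks. HTA2 had no peak over the gene or in its promoter, and the nearest peak edge was 724 bp away. The 2 H2B genes thus each had a peak over the coding sequence, with summits 66 and 84 bp inside, whereas no base of HTA1, HTA2, HHT1, HHT2, HHF1, HHF2, HTZ1 or HHO1 was under a peak. A whole peak inside the gene was found at 98 of the 1373 genes of like length (7.14%). HTB1 and HTB2 are close copies in their coding sequence, and how the authors placed reads that match both is not given in the sources used here, so the division of signal between the 2 genes is uncertain. H2A, H3 and H4 are also encoded by 2 genes each, so the lack of a peak over those coding sequences is uncertain in the same way.

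The copies of the H3-H4 pair differed in the list. HHT2-HHF2 had 1 peak (chrXIV:576192-576487) at a fold of 1.83, and its −log10 q of 31.5 was the highest −log10 q among the histone promoter peaks. The summit lay 287 bp upstream of HHT2 and 390 bp upstream of HHF2, or 51.5 bp from the midpoint, and the peak reached neither coding sequence. HHT1-HHF1 had no peak between, over or near its genes. The nearest summits were 3920 bp from the start of HHT1 and 4283 bp from the start of HHF1, on opposite sides of the pair. The distance between those 2 summits was 8850 bp, longer than 66.4% of the 1414 distances between neighbouring summits in the list (median 4940 bp), so a stretch of this length without a summit was not rare. The region between HHF1 and HHT1 (646 bp) and that between HHT2 and HHF2 (676 bp) were of similar length. Without values per sample, the difference between the 2 pairs could not be tested.

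HTZ1, whose product SWR1 inserts into nucleosomes, faced a broad peak that lay too far upstream to count as a promoter summit. This peak (chrXV:304248-305058, 811 bp wide against a median of 359 bp over all peaks) had a fold of 1.65 (−log10 q 19.0). Its summit was 721 bp upstream of HTZ1 and 645 bp upstream of the divergent neighbour PLB3, which encodes a phospholipase B. The near edge of the peak was 265 bp from HTZ1, inside the promoter window, so HTZ1 is gained when any base of a peak is counted instead of the summit. HHO1 shared its peak (chrXVI:309855-310303) with the divergent gene NAN1, which encodes a protein of the small subunit processome that assembles ribosomes. The fold was 1.44 and the −log10 q was 4.97. The summit was 296 bp upstream of HHO1 and 310 bp upstream of NAN1, 7 bp from the midpoint.

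The count of 6 depended on how a promoter summit was defined. With peaks of at least the list's median fold (1.66), 4 histone genes had one, HTA1, HTB1, HHT2 and HHF2, against 9.88% of all genes. The same 4 had one at a −log10 q of 10 or more, against 11.3%. HTB1, HTB2, HHT2 and HHO1 were left when a summit counted only for the closest gene start, against 9.98%. Any base of a peak in the window gave 7 genes, HTZ1 being added, against 24.2%, and a window from 1000 bp upstream gave 8, with HTA2 and HTZ1 added, against 23.7%. HHT1 and HHF1 had no summit under any of these definitions. With the whole gene counted as the body, HTB1 and HTB2 had a summit, against 15.2% of all genes.

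**Figure D2:**
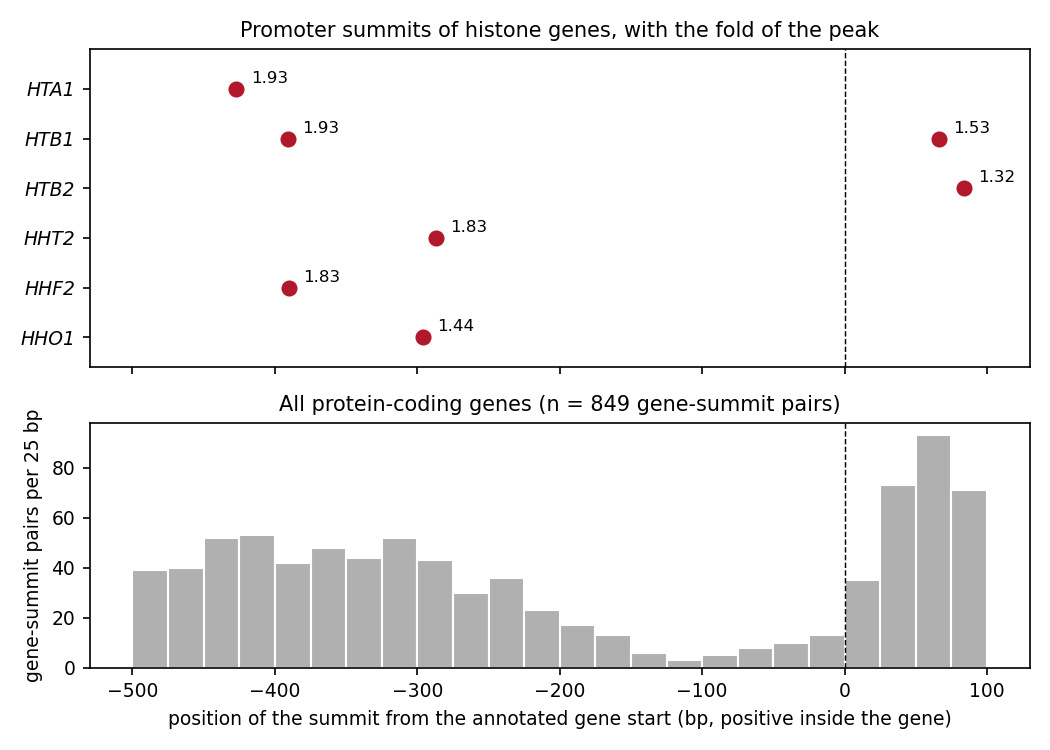
Position of promoter summits from the annotated gene start in bp (positive inside the gene), for histone genes (top) and all protein-coding genes (bottom). At the top each point is 1 gene-summit pair with the fold of its peak, so a summit shared by a gene pair is drawn at both genes. The bottom shows 849 gene-summit pairs in bins of 25 bp. The upstream histone summits lie between 287 and 427 bp from the start and the inner ones 66 and 84 bp inside, where summits of other genes are also frequent.

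The places of these summits were those used by many other genes. Upstream summits of histone genes lay 287 to 427 bp from the start, and the stretch from 250 to 450 bp upstream held 366 of the 849 gene-summit pairs of all genes (43.1%). These pairs include summits in the first 100 bp of a gene, so the share among upstream pairs alone is higher, and it was not calculated. The stretch encloses the range of the histone summits. No histone summit lay in the 250 bp directly upstream of a start, where 134 of 6002 genes (2.23%) had one. The median distance from the start to the nearest summit was 408.5 bp over the 10 histone genes and 2717 bp over all genes. Histone genes ranged from 66 bp at HTB1 to 4283 bp at HHF1, and the HHT1 and HHF1 starts were farther from a summit than the median gene.

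Since all 6 histone loci are divergent from a neighbour, they were set beside the other divergent regions. Of the 6 regions, 4 had a summit between the starts, against 183 of 1418 divergent regions (12.9%). With the first 100 bp of both genes included, 5 of the 6 had a summit, against 348 of 1418 (24.5%). Of the 4 core pairs, 2 had a summit between the starts, HTA1-HTB1 and HHT2-HHF2. Histone regions were long, from 605 bp at HHO1/NAN1 to 1365 bp at HTZ1/PLB3 with a median of 687.5 bp, against a median of 486 bp over all divergent regions. Longer regions held a summit more often, from 0 of 109 regions of up to 200 bp to 36 of 104 regions of 1000 to 1500 bp (34.6%), and the longest regions had 26 of 84 (31.0%). Among the 456 other regions no more than 20% shorter or longer than the core histone regions, 89 had a summit (19.5%), which is the closer background for the core pairs.

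**Figure D3:**
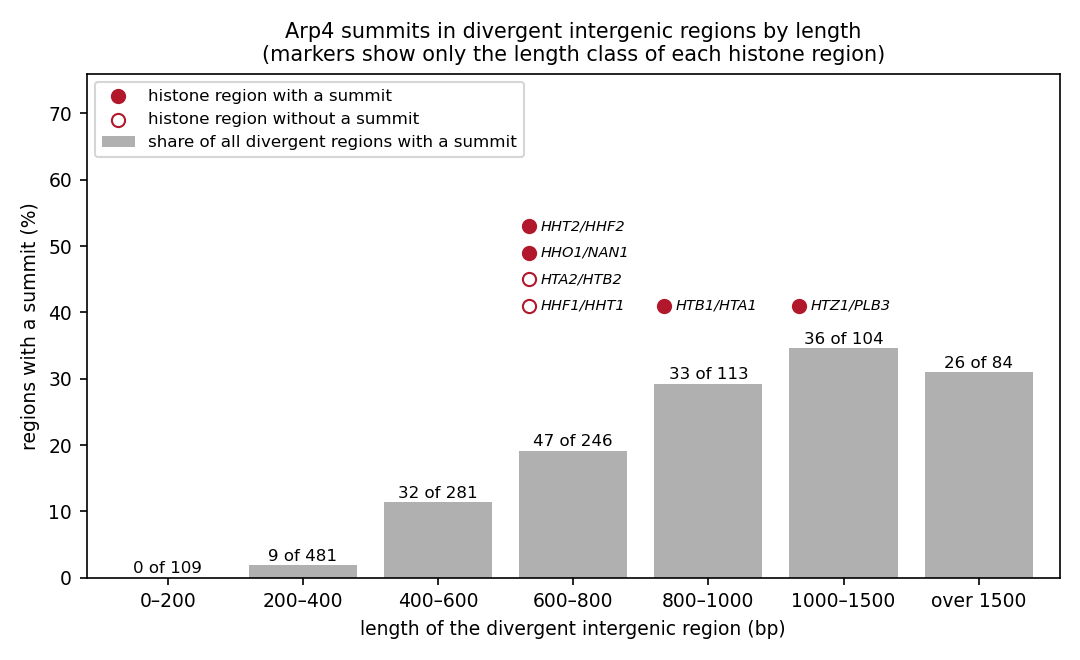
Share of divergent intergenic regions with an Arp4 summit between the starts (percent, grey bars with counts) by region length in bp. Red markers place each histone region in its length class, filled with a summit (4 regions) and open without (2 regions), and their height has no meaning.

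In the 4 histone regions with a summit between the starts, it lay close to the midpoint. The distances from the midpoint were 7 bp at HHO1/NAN1, 18 bp at HTB1/HTA1, 38 bp at HTZ1/PLB3 and 51.5 bp at HHT2/HHF2. The median over all 187 summits in divergent regions was 110.5 bp, and 81 bp in other regions of like length. Of the 183 summits in other divergent regions, 8 were closer to the midpoint than that of HHO1/NAN1 and 42 were closer than that of HHT2/HHF2. All 4 histone summits lay at least 40% of the way into the region from the nearer start. So did 72 of the 187 (38.5%), which include these 4, and 39 of 89 summits in other regions of like length (43.8%). That limit was chosen after the positions had been seen.

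**Figure D4:**
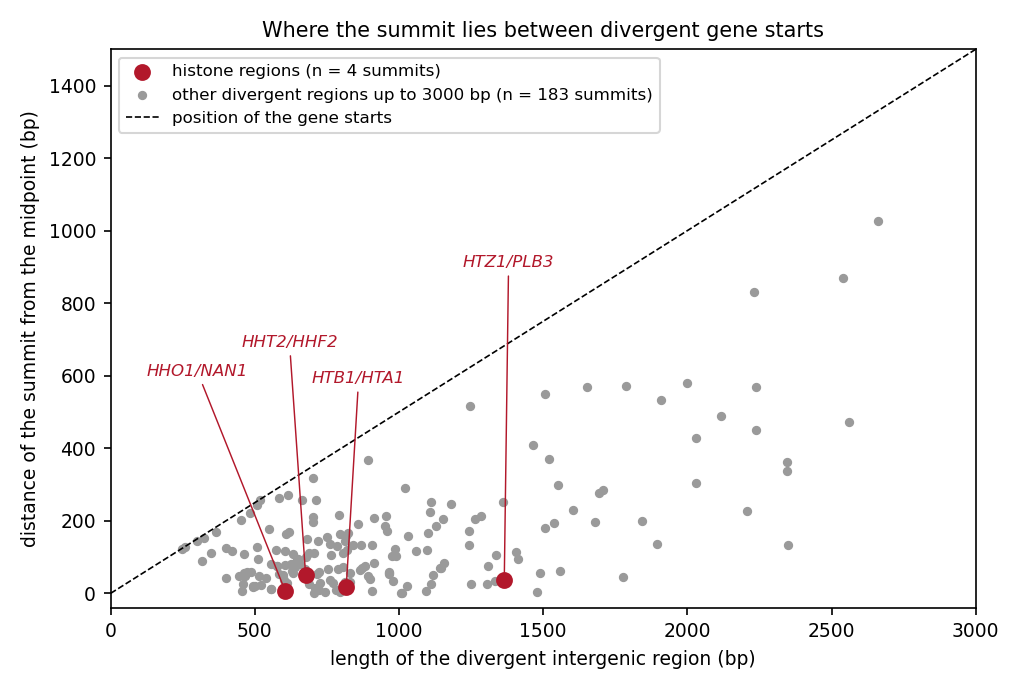
Distance of the summit from the midpoint between divergent gene starts (bp) against the length of the region (bp), for histone regions (red, 4 summits) and other divergent regions (grey, 183 summits). The dashed line marks the gene starts. The 4 histone summits lie 7 to 51.5 bp from the midpoint.

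The histone promoter peaks were of middling to low strength. The 5 peaks had folds of 1.93, 1.83, 1.53, 1.44 and 1.32, with a median of 1.53, against 1.66 over all 1430 peaks and 1.86 over the 659 promoter peaks of all genes. By fold, the HTA1-HTB1 peak ranked 400 of 1430 and the HHT2-HHF2 peak 491, both above the median of the list. The peak inside HTB1 ranked 942, that of HHO1 1096 and that inside HTB2 1283, all below it. Among the 271 peaks with a summit in the first 100 bp of a gene, the HTB1 peak ranked 230 and the HTB2 peak 264. The peaks between the 2 genes of a core pair were close to the median of the 187 peaks in divergent regions (1.86), with rank 85 for HTA1-HTB1 and 99 for HHT2-HHF2. Both were below the median of 2.06 over the 89 summits in other regions of like length. The peaks were 236 to 449 bp wide, around the median of 359 bp over all peaks.

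**Figure D5:**
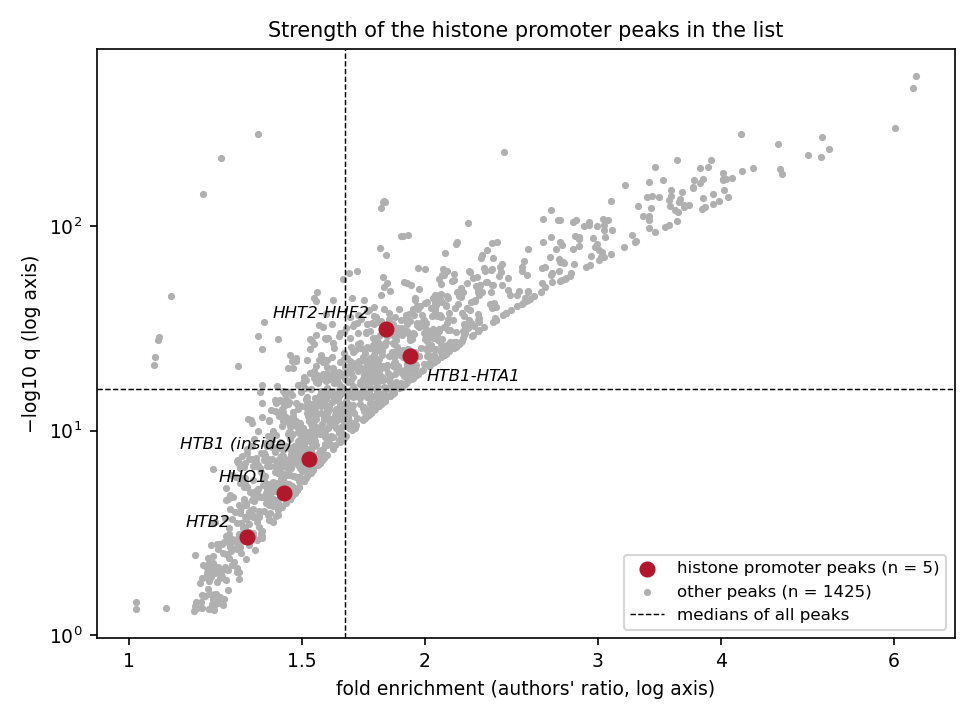
Fold enrichment (authors' ratio, log axis) against −log10 q (log axis) for the 5 histone promoter peaks (red) and the other 1425 peaks (grey), with dashed lines at the medians of all peaks. HTB1-HTA1 and HHT2-HHF2 are above both medians, and HTB1 (inside), HHO1 and HTB2 are below both.

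Of the 12 genes next to the histone loci, 4 had a summit at the promoter or in the body, against 1316 of all 6002 genes (21.9%). The strongest was in ECM15, the gene that converges on HTB2, with a fold of 2.22 (chrII:237199-237450), a −log10 q of 34.7 and a summit 148 bp inside its start. This peak was stronger than any at the histone genes and its summit lay 432 bp beyond the end of HTB2. In the systematic names, which count genes outward from the centromere, ECM15 (YBL001C) is the first and HTB2 (YBL002W) the second gene on the left arm of chromosome II. KTR5, a mannosyltransferase gene next to HHF2, had a promoter peak of fold 1.86, shared with the divergent gene CRZ1. The summit of this peak lay 2067 bp beyond the end of HHF2. TBF1, which encodes a DNA-binding factor active at subtelomeres and snoRNA genes, had a weak peak of fold 1.29 beside HHO1, with its summit 62 bp inside TBF1. NAN1 had, besides the peak shared with HHO1, a peak of fold 1.47 within the gene. UTP20, FLR1, IPP1, CRF1, ADK1, SIW14, HRD1 and PLB3 had no summit at the promoter or in the body.

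Genes whose products act on histones or on histone genes were also counted. Of 12 genes for the transcription of histone genes, YTA7 alone had a promoter summit. Of 13 genes for histone chaperones and the centromeric histone, NAP1 alone had one. Together these were 2 of 25 genes, against 14.0% of all protein-coding genes, and 0 of the 25 had a body summit, against 10.1%. With 25 genes, these counts are near the background. YTA7, a bromodomain ATPase that promotes histone gene transcription, had a peak of fold 1.64 with the summit 411 bp upstream (chrVII:1026887-1027438), shared with the gene HUA1. NAP1, a chaperone of H2A and H2B, had a peak of fold 1.31 with the summit 385 bp upstream (chrXI:526916-527137). SPT10 and HIR1 are examples without a peak, with the nearest summit 3085 bp and 6664 bp from the start. The median distance to the nearest summit over the 25 genes was 3966 bp, against 2717 bp over all genes.

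Divergent regions of like length were also ranked by how close their fold, on the log2 scale, was to 1.53, the median of the 5 histone promoter peaks, among 89 summits in other such regions. That median is the fold of the peak inside HTB1, and the 4 summits between histone gene starts had a higher median fold, 1.74. CRC1/RAS1 was closest (1.53), followed by PHO91/YNR014W (1.51), MMF1/PCL7 (1.55) and MOT1/RPS9A (1.58). In these regions the summit lay 56.5 to 66.5 bp from the midpoint, a little farther than in the histone regions.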

How the data were processed

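Chromatin from wild-type yeast with Arp4-3Flag (2 samples) or no tag (2 samples) was precipitated with anti-Flag antibody, per the labels. The submitters' processing notes name MACS2, SAMtools 1.4, BWA 0.7.15-r1140 and fastp 0.21.0. The sources used here do not give settings, genome build, control, threshold, pooling of samples or the handling of reads that match several places. The deposited list gives a fold (a linear ratio), a score and a −log10 q per peak, as MACS2 writes them. The deposited score equalled the whole-number part of 10 times −log10 q throughout and was set aside. Depth is unknown.

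Genes came from the R64 table, strand from the systematic names, and peak positions are counted from 1. Of 275 tRNA genes, 48 were within 100 bp of a summit, and 4 to 13 were after shifts of 500 or 1000 bp, so R64 starts were used. Differences between builds of up to about the 100 bp of that window could have escaped this check. Such differences would change the distances in bp given here. Gene coordinates are not printed, and no sequence was used here. Counts were made with Python 3.11.15, numpy 2.4.6 and pandas 2.3.3, and the counting was tested on simulated data with planted summits, which were all recovered in 5 runs. No test was made, since 1 list holds no replicates. A divergent region lies between neighbouring protein-coding genes that point away from each other.

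The members, lists and windows were chosen with earlier results of these data known. Named are the 10 genes, their neighbours, the listed regulators and chaperones with a peak plus 2 without, and the 4 most similar divergent pairs. Alternatives were stricter thresholds, other windows, any base of a peak, and assignment to the nearest start.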

Additional observations from a re-analysis of the deposited data

How the results depend on the processing

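Of 26 alternatives, 16 left a count within 1.5 times or a median rank on the same side, and 10 did not. The 6 histone genes with a promoter summit became 0 with a window from 250 bp upstream to the start. By its placement it left out the upstream histone summits, which lay farther out, and the summits inside HTB1 and HTB2. That window held a summit at 2.23% of all genes. The other 5 definitions gave 4 to 8, against 9.88% to 24.2% of all genes. Loci with a summit between or at the starts numbered 5 of 6 (24.5% of all divergent regions). They were 2 at or above the median fold, 3 at a −log10 q of 10 or more and 0 in the 250 bp window. The share of all divergent regions was not counted under these stricter definitions, so the drop cannot be set against the whole list. Body summits were 0 (10.1% of all genes), but 2 (HTB1 and HTB2) with any peak base or with the whole gene counted. The whole gene gave 15.2% of all genes, and the share for any peak base was not counted. Regulator and chaperone genes, 2 of 25, were 0 at or above the median fold (9.88% of all genes) and 1 (YTA7) at the stricter q (11.3%). They were 0 in the 250 bp window (2.23%) and 0 with the nearest start only (9.98%). Divergent core pairs with a summit stayed at 2 in the 3 alternatives tried, for which the share of all divergent regions was not counted. No paired analysis was possible because the list has no values per sample, and no sample could be left out.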

Other observations

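HTB1 belongs to a set of 10 genes with a summit both upstream and in the first 100 bp, chosen after the values had been seen. The other 9 are RSM28, RRT5, PXR1, RFU1, EMG1, YME2, DMA2, MRPS12 and BUD21. Their inner summits lay 30 to 91 bp inside and their upstream summits 424 to 490 bp before the start. In HTB1 the inner peak was the weaker (1.53, against 1.93 upstream). In the other 9 genes the inner peak was the stronger in 6, among them EMG1, a ribosome assembly gene (3.00, against 2.25 upstream), and the weaker in 3, RFU1, YME2 and MRPS12.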
